A study of Homo sapiens with 8 samples.

Results

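The messenger RNAs of the replication-dependent histone genes were measured in 5 human cancer cell lines, in untransfected cells and after transfection of a small RNA. Members were chosen by name: every gene whose name in the array design begins with HIST1H, HIST2H, HIST3H or HIST4H, with control spots left out. This gave 69 genes of 43317 gene names (0.159%), on 85 of 58201 probes. By name they belong to the linker histone H1 (6 genes) and the core histones H2A (17 genes), H2B (19 genes), H3 (13 genes) and H4 (14 genes). Among those of H2A and H2B, HIST1H2APS1 and HIST2H2BA have non-coding RefSeq records. The array annotation on hg19 placed the 56 HIST1 genes on chromosome 6, the 9 HIST2 and 3 HIST3 genes on chromosome 1 and HIST4H4 on chromosome 12, apart from a single probe that it gave no position.

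All 8 arrays were 2-colour comparisons within a cell line. Mock cells, labelled with Cy3 on every array, had received no transfection, and the Cy5 channel held cells of the same line that had been given a miRNA or an siRNA with Lipofectamine RNAiMAX. PC3 (prostate cancer) received si-PIR-2 or si-PIR-3, siRNAs against PIR, and SK-MES-1 (lung squamous cell carcinoma) received miR-144-5p or miR-144-3p. SW1990 (pancreatic cancer) and MDA-MB-231 (breast cancer) each received miR-204-5p, and PANC1 (pancreatic cancer) received miR-130-5p or miR-130-3p. Each transfection was on 1 array. No dye was swapped and no array held a control small RNA, so the dye, the act of transfection and the transfected sequence cannot be told apart on any single array. The labels do not say whether the 2 mock samples of a line were separate cultures.

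Replication-dependent histone genes are switched on together in S phase, when new chromatin has to be packed behind the replication fork. Their mRNAs have no introns and end in a short stem-loop bound by the stem-loop binding protein SLBP, where almost all other mRNAs carry a poly(A) tail. Some members can also be read through to a poly(A) site further downstream, which gives a polyadenylated histone mRNA in cells that have left the cycle or are differentiating. The amplification kit named in the labels is primed at poly(A) stretches, and how much of each member's signal came from tailed RNA was not tested.

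The stem-loop could be read in some of the probes themselves. Its core CTTTTCAG was in 8 of 85 member probes (9.41%), against 271 of 58201 probes on the array (0.47%). The core alone does not make a stem-loop: in A_33_P3287879 of HIST1H3H and A_24_P9321 of HIST1H3I only 2 of 6 stem pairs formed. In the probes of HIST1H2AG and HIST3H2BB with the core, the stem was not complete within the probe. In the 4 probes below, whose DNA letters are shown with the paired stem and loop in capitals, all 6 base pairs of the stem were intact, and these probes lie at the mature end of the mRNA.
HIST1H2AI: ccaaaGGCTCTTTTCAGAGCCaccta
HIST1H2BE: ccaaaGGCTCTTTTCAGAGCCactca
HIST1H3H: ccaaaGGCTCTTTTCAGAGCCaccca
HIST2H3A: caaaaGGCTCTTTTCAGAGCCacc
The capitals were identical in 3 histone classes and in genes of both chromosome 6 and chromosome 1, and only the flanks differed.

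Coding stretches of the same class can be nearly as alike, which limits how far a probe tells its gene from its neighbours. The pair below shows the part shared by a probe of HIST1H2BD and a probe of HIST1H2BK, with the 4 differing bases of 55 in capitals.
HIST1H2BD: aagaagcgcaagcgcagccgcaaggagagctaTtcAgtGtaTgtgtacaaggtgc
HIST1H2BK: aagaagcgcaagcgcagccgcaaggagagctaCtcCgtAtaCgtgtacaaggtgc
Probes at least 90% identical over at least 40 bases made up 8 pairs, all within H2B or within H4, and they included the probe that stood for 8 of the 69 genes. Members with such probes are uncertain as single genes. Below that limit many H2B probes were still alike, such as those of HIST1H2BB and HIST1H2BL at 85.4% over 41 bases. Counts of genes within a class may therefore not be counts of separate measurements.

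The transfected miRNAs are shown because the arrays differ by them. RNA letters run 5′ to 3′, from RefSeq on GRCh38.p14, with the seed at bases 2 to 8 in capitals. The labels do not say whether miR-130 was miR-130a or miR-130b, so every entry found is printed.
miR-144-5p: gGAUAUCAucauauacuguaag
miR-144-3p: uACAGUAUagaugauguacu
miR-204-5p: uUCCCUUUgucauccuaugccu
miR-130a-5p: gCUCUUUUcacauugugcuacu
miR-130b-5p: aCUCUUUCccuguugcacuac
miR-130b-3p: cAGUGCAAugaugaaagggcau
No whole seed was shared between any of these 6 miRNAs, but the seeds of miR-130a-5p and miR-130b-5p differ only at base 8.

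Promoter sequence separated the classes as well. The octamer ATTTGCAT, searched on both strands in the 250 bases before the annotated starts, was found at 13 of 17 H2B genes and 11 of 15 H2A genes, but at 0 of 6 H1, 1 of 11 H3 and 0 of 12 H4 genes. Over all 27305 genes with a promoter in the table, 2.03% held it. CCAAT was found at every H1, H2A, H2B and H3 gene with a promoter (6, 15, 17 and 11 genes) and at 3 of 12 H4 genes, against 37.0% of all genes, and TATAAA at 42 of 61 members against 13.05%. No motif contains another, though neighbouring matches can share letters. The H3 gene with the octamer, HIST1H3D, shares its start window with HIST1H2AD. The 3 windows below have the octamer in capitals and lie on the minus strand of GRCh38.p14. They belong to an H2B gene of each main cluster and to an H2A gene that was among the highest on the miR-130-5p array.
HIST1H2BG, chr6:26216689-26216746: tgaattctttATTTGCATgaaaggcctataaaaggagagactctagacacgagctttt
HIST2H2BE, chr1:149886683-149886738: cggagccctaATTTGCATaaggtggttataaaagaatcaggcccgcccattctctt
HIST1H2AD, chr6:26199363-26199422: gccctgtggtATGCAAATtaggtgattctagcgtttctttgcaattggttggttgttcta
The octamer lay 48 bases before the start of HIST1H2BG and 46 before that of HIST2H2BE, and in the other orientation 119 bases before that of HIST1H2AD.

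The targeted gene PIR had log2 ratios of -5.46 with si-PIR-2 and -4.27 with si-PIR-3. It was at -1.60 on the miR-130-5p array and between -0.24 and 0.05 on the other 5. No spot was saturated, and 41.4 to 46.4% of probes in Cy3 and 49.8 to 54.6% in Cy5 were well above background, the scanner software's call that a spot is brighter than its surroundings. Of 4 squamous markers, 2 were well above background in SK-MES-1 mock cells, with KRT5 and DSG3 not, and of 4 prostate markers 3 were in PC3, with KLK3 not. Of 4 breast markers 3 were in MDA-MB-231, with ELF5 not, and all 4 pancreatic duct markers were in SW1990 and PANC1. The breast and duct lists do not tell the lines apart, since 3 breast and 4 duct markers were well above background in each of the 5 lines. In SW1990, 2 squamous markers were as well.

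A ratio is given as the log2 of transfected over mock, computed by the scanner software, and was read only where at least 1 channel was well above background. On this scale 56 members could be read on all 8 arrays, 12 on 1 to 7 arrays and 1, HIST2H2BA, on none. Where a gene had several probes, the brightest stood for it. Fewer cells in S phase and less histone mRNA per cell cannot be told apart in such bulk samples.

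The widest spread among the members was on the miR-130-5p array in PANC1, where the classes parted. All 13 H4 genes read were below 0, with a median of -0.90 and a range of -1.35 to -0.56. H3, their partner in the nucleosome, followed in 12 of 13 genes, with a median of -0.60. H2B genes lay on the other side, with 14 of 17 above 0 and a median of 0.68. H2A, which pairs with H2B, was divided: 7 of 16 genes were above 0 and 9 below, with a median of -0.29. Over all 22396 genes read on that array the median was 0.09.

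**Figure D1:**
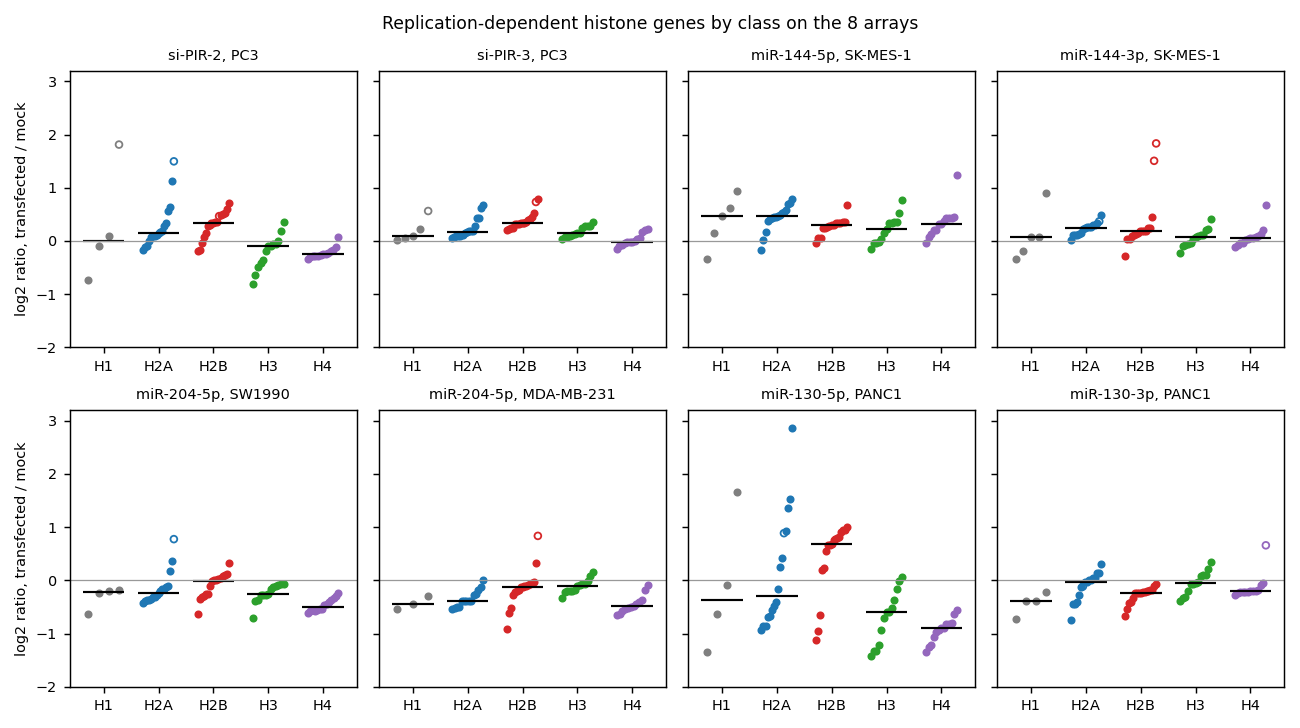
Log2 ratio of transfected over mock (y axis) of every member read, by histone class (x axis), in 1 panel per array. Filled circles had both channels well above background, open circles 1 channel, and bars are class medians; on the miR-130-5p array the 13 H4 genes lie between -1.35 and -0.56 while 14 of 17 H2B genes lie above 0.

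Past 1 in size on the miR-130-5p array, 4 of 63 members were higher and 10 were lower, against 7.55% and 6.19% of all genes read. Without the 8 genes whose probe is nearly identical to another member's, the counts were 4 and 10 of 55. With 1 array there is no test of these values. After normexp background correction and loess in place of the scanner's own steps, the class medians were -0.85 for H4, -0.48 for H3, -0.16 for H2A and 0.63 for H2B. The members furthest below 0 were HIST1H3F at -1.43, HIST1H4B at -1.348, HIST1H1B at -1.345, HIST1H3D at -1.33 and HIST1H3B at -1.33. They encode core histones H3 and H4 and a linker histone, and all lie in the HIST1 cluster. The members furthest above 0 were HIST2H2AA4 at 2.85, HIST1H1C at 1.65, HIST1H2AD at 1.53 and HIST1H2AE at 1.36. All but HIST1H1C of these 4 encode H2A, and both channels were well above background for each.

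On the miR-130-3p array of the same line HIST2H2AA4 was at -0.75. Its ratios were 0.64 and 0.43 in PC3, 0.70 and 0.48 in SK-MES-1, 0.17 in SW1990 and -0.0 in MDA-MB-231. HIST1H4B, at the other end, had -0.31 and -0.02 in PC3, 0.13 and -0.08 in SK-MES-1, and -0.38 and -0.44 on the miR-204-5p arrays. Its miR-130-3p ratio was -0.27.

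Within H2B, 3 genes stood apart on the miR-130-5p array. HIST1H2BE was at -1.12, HIST2H2BF at -0.96 and HIST1H2BF at -0.65, while the other 14 lay between 0.20 and 0.996. The highest of these 14 was HIST1H2BG, followed by HIST1H2BJ at 0.95 and HIST1H2BK at 0.94. Probes of the 3 genes apart were at most 60.7% identical to another member's over at least 40 bases. Many of the 14 had closer matches, such as HIST1H2BI and HIST1H2BJ at 82.9% over 41 bases. Whether such probes read shared RNA was not tested, so the 14 may not be separate measurements. The HIST1H2BE probe is the H2B probe printed above with a complete stem-loop. All 8 probes with the stem-loop core were read on this array, and 7 of them were below 0, with a median of -0.70. The 8 include the HIST1H3H and HIST1H3I probes in which only 2 of 6 stem pairs formed. Probes of the H3 genes HIST1H3H, HIST1H3I and HIST2H3A are among the 8, and 12 of 13 H3 genes read here were below 0. The core probe above 0 was that of HIST3H2BB, an H2B gene, at 0.20. The part of histone class in this count was not tested. Over all 63 members read, a set that includes the genes of these 8 probes, 40 were below 0 and the median was -0.55.

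On the same array, H2B and H2A genes were set side by side with and without the octamer. H2B genes with the octamer had a median of 0.72 (12 read, 10 above 0) and those without it 0.66 (4 read, all above 0). H2A genes with it had a median of -0.16 (11 read, 5 above 0) and those without it 0.20 (4 read, 2 above 0). H2B thus had the higher median of the 2 classes both with and without the motif, and no test was run on these counts.

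HIST1H1C, HIST1H2AC, HIST1H2BC, HIST1H2BD, HIST1H2BK and HIST2H2BE are known as members that also make polyadenylated mRNAs. All 6 were above 0 on the miR-130-5p array, between 0.24 for HIST2H2BE and 1.65 for HIST1H1C, with a median of 0.85. After normexp and loess HIST2H2BE was at 0.03. On the miR-130-3p array all 6 were below 0, with a median of -0.24. Of these 6, 4 are H2B genes, so this count and the H2B count share genes.

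Probes of the same gene gave different ratios there, and in some genes, but not all, position in the transcript went with the difference. Among the core histone probes, 8 probes of 7 genes start at least 500 bases into the annotated transcript and match no probe of their class at 70% or more, a rule made after the values had been seen. H1 genes were left out of it, although 4 H1 probes meet both limits, among them the single probes of HIST1H1B (-1.345) and HIST1H1C (1.65). HIST1H2AC has 3 probes. The downstream probe A_23_P167983, at chr6:26138822-26138881 (hg19, plus strand), had a ratio of 2.05 with both channels well above background, while the other 2, at chr6:26124461-26124520 and chr6:26124403-26124462, had 0.42 and -0.12. For HIST1H4H the downstream probe had 1.57 (both channels) and the other probe -0.63. After normexp and loess the downstream probe was at 1.09.

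HIST2H2BE and HIST1H2AG showed the same order, but with a bound only. The downstream probe of HIST2H2BE was well above background in transfected PANC1 cells and not in mock cells, which makes the transfected level at least 1.47-fold higher, and its other probe was at 0.24. For HIST1H2AG the bound was at least 1.08-fold and the other probe was at -0.66. The 2 probes of HIST1H2BK, 1 of them downstream, were close at 0.94 and 0.70. HIST2H2BF, with only downstream probes, was below 0 on both, at -0.96 and -0.62.

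In all, 5 of 14 genes with several probes read had probes more than 1 apart on the miR-130-5p array, against 0 to 3 genes on each other array. HIST1H2AI was the fifth, with -0.55 and -1.66 from probes that are not downstream. HIST1H2AM, with probes 0.956 apart, had 0.26 and -0.70, also from probes that are not downstream. On the miR-144-5p and miR-144-3p arrays the downstream HIST1H2AC probe was far below the others, at -1.79 and -1.18, while the probe that stood for the gene was at 0.45 and 0.15. The downstream probe thus lay on opposite sides of 0 in PANC1 and SK-MES-1, a difference that was not tested. After normexp and loess it was at 1.51 in PANC1 and at -0.38 and -0.24 in SK-MES-1.

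**Figure D2:**
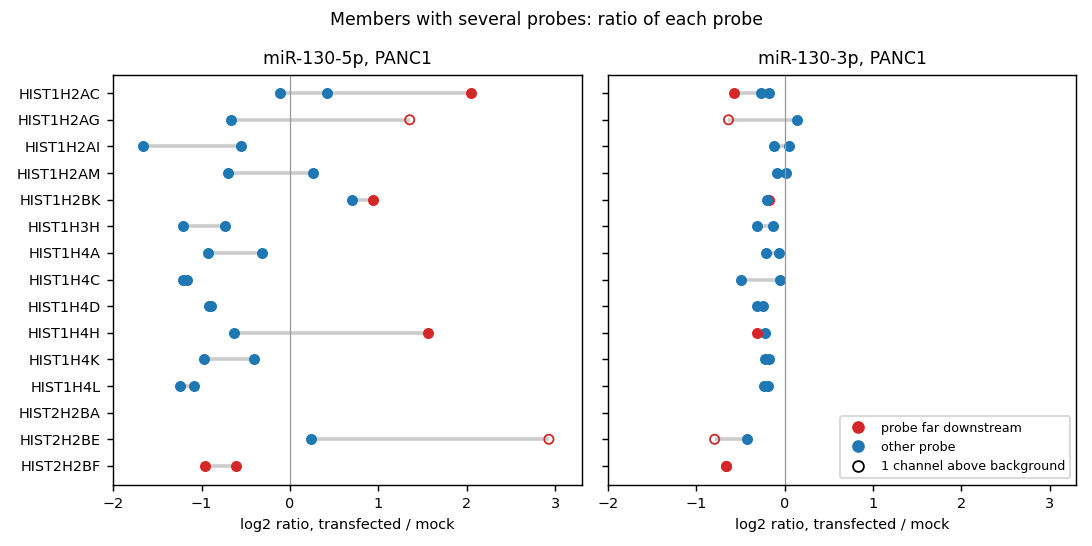
Log2 ratio of transfected over mock (x axis) of each probe of the members with several probes (y axis), on the miR-130-5p and miR-130-3p arrays of PANC1. Red marks probes far downstream in the transcript, blue other probes and open circles a single channel above background; the red probes of HIST1H2AC and HIST1H4H reach 2.05 and 1.57 on the miR-130-5p array, and HIST2H2BA was not read.

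On the miR-130-3p array no member passed 1 in size, against 6.4% of all genes higher and 1.93% lower. All 17 H2B genes read were below 0 there, with a median of -0.23, and 12 of 13 H4 genes, with a median of -0.21. H3 had a median of -0.04 and H2A of -0.04. Of all 23123 genes read on this array, 10828 were below 0, and the median was 0.03. After normexp and loess the class medians were -0.16 for H2B, -0.16 for H4, 0.01 for H3 and -0.03 for H2A. Both PANC1 arrays compare with mock cells of the same line, which may be the same RNA.

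The 15 genes of a list of S phase markers were all below 0 on the miR-130-5p array, with a median of -0.76 and 4 of 15 below -1. CDC45, a part of the replicative helicase, was lowest at -1.34, and RRM2, which makes deoxynucleotides, was at -1.31. The histone chaperones CHAF1B and NASP, which carry new H3 and H4, were at -1.85 and -1.64, and 6 of 8 chaperones were below 0. On the miR-130-3p array the S phase list had a median of 0.05 with 9 of 15 genes above 0. The part of these lists in the histone values was not tested.

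miR-204-5p was the only small RNA given to 2 lines, SW1990 and MDA-MB-231. Of 57 members read in every array of the fit, 51 had a mean ratio below 0 and the median was -0.26, against 0.04 over the 19661 genes tested. H4 was lowest: all 12 genes were below 0 in both lines, with a median of the mean ratios of -0.52. HIST1H4K had ratios of -0.55 in SW1990 and -0.66 in MDA-MB-231, and HIST1H4J had -0.54 and -0.64. H2A genes were below 0 in both lines in 13 of 14 cases, H3 genes in 11 of 13 and H2B genes in 6 of 15, against 28.8% of all genes read in both.

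No member passed the test of the mean ratio against 0 (limma, adjusted p under 0.05), and neither did any other gene (0% of 19661). At an unadjusted p under 0.05, 15 members were lower and 0 higher, against 6.75% and 8.53% of all genes. Of these 15, 9 were H4 genes. The smallest adjusted p among the members was 0.198 in limma for HIST1H4K, with a mean of -0.60 (SE 0.12). HIST2H2BE, at -0.64 and -0.52, had a mean of -0.58 (SE 0.12, adjusted p 0.201 in limma), but -0.19 and -0.24 after normexp and loess. The H4 values are not independent of each other, since several H4 probes are nearly identical.

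The p-values rest on 1 spread per gene, pooled over the miR-204-5p and si-PIR arrays and drawn by eBayes towards that of all genes. That spread includes the difference between the 2 lines given miR-204-5p and the difference between the 2 siRNAs in PC3. It therefore does not measure the arrays of either group alone. No member passed 1 in size in either line, against 4.56% of genes higher and 1.93% lower in SW1990 and 3.36% and 1.88% in MDA-MB-231. Among the 6 members known as polyadenylated, HIST2H2BE, HIST1H2AC and HIST1H1C were below 0 in both lines, with means of -0.58, -0.40 and -0.37. HIST1H2BK, HIST1H2BC and HIST1H2BD were close to 0, with means of 0.09, -0.06 and 0.01, whose signs depend on the array or the processing. In MDA-MB-231 the probe of HIST3H2BB was well above background in transfected cells only, which makes its level at least 1.05-fold higher.

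All 15 S phase genes were below 0 in both lines, with medians of -0.35 and -0.46. RRM2 had ratios of -0.47 and -1.35, MCM4, a helicase subunit, -0.98 and -0.78, and E2F1, a transcription factor of the G1/S transition, -0.83 and -0.60. Among replication-independent histone variants, CENPA, the H3 variant of centromeres, stood out at -1.28 and -1.40 (mean -1.34, SE 0.12, adjusted p 0.125 in limma). None of the 15 S phase genes and 10 variants tested passed at an adjusted p under 0.05, and 7 and 4 were lower at an unadjusted p under 0.05. Whether the histone values followed the S phase genes was not tested.

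In PC3 the 2 siRNAs against PIR gave the members a median mean ratio of 0.11, with 36 of 57 above 0, against 0.03 over all genes tested. H2B led: all 15 genes had a mean above 0, with a median of 0.34, and 14 of 17 H2B genes read were above 0 on both arrays. H2A genes were above 0 on both arrays in 13 of 16 cases. Of all genes read on both, 34.1% were above 0 on both and 26.2% below. H4 went the other way, with 8 of 13 genes below 0 on both arrays and a median mean ratio of -0.12. Both arrays compare with PC3 mock cells, which may be the same RNA.

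Again 0 members passed the test (limma, adjusted p under 0.05; 0% of all genes, PIR included, with an adjusted p of 0.147). At an unadjusted p under 0.05, 11 members were higher and 0 lower, against 8.68% and 6.85% of all genes, and 9 of the 11 were H2B genes. Many H2B probes are alike, so the H2B values may not be independent of each other. The smallest adjusted p was that of HIST1H2AG, 0.229 in limma, with ratios of 0.57 and 0.63 and a mean of 0.60 (SE 0.12). Its downstream probe, with both channels well above background, lay on the other side of 0, at -0.07 and -0.22. After normexp and loess that probe was at -0.03 and -0.04. HIST1H2BG had 0.60 and 0.45 (mean 0.53, SE 0.13), and HIST2H2AA4 had 0.64 and 0.43 (mean 0.54, SE 0.14).

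The siRNAs gave H3 different signs. With si-PIR-2, 11 of 13 H3 genes were below 0, with a median of -0.10, and with si-PIR-3 all 13 were above 0, with a median of 0.14. HIST1H3I was at -0.80 and 0.24 and HIST1H3C at -0.63 and 0.10. Each siRNA was on 1 array, so this difference could not be tested.

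With si-PIR-2, 3 members were past 1 above mock and 0 below, against 5.82% and 2.87% of genes, and with si-PIR-3 none were, against 3.92% and 2.28%. HIST1H2AA, a gene known from testis, was at 1.14 with both channels well above background, and at 0.10 with si-PIR-3. After normexp and loess its si-PIR-2 ratio was 0.20. The other 2 were dim: HIST1H1T, the testis linker histone, was well above background in transfected cells only and at least 1.02-fold higher, and HIST1H2APS1, listed as a pseudogene by its name, allowed no bound above 1. All 6 polyadenylated members were above 0 on both arrays for the probe that stood for each. The downstream probe of HIST2H2BE was at -1.15 with si-PIR-2, with both channels well above background, and at 0.07 with si-PIR-3. After normexp and loess its si-PIR-2 ratio was -0.31. HIST1H2BK was the highest of the 6 with si-PIR-2, at 0.71, and at 0.24 with si-PIR-3 it was below HIST1H2BC, HIST1H2BD and HIST2H2BE.

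The difference between the miR-204-5p and si-PIR arrays was tested in the same fit. Of 57 members, 54 were lower with miR-204-5p, with a median difference of -0.40 against 0.02 over all genes, and all 15 H2B, 14 H2A and 12 H4 genes were. No member passed (limma, adjusted p under 0.05; 0% of all genes). At an unadjusted p under 0.05, 10 members were lower and 0 higher, against 5.66% and 5.76% of all genes. HIST2H2BE differed by -0.78 (SE 0.18, adjusted p 0.337 in limma), or by -0.29 after normexp and loess, and HIST1H2AG by -0.76 (SE 0.17, adjusted p 0.333 in limma). The downstream probes of both genes were not read in MDA-MB-231. The lines differ along with the small RNA in this contrast, so the 2 cannot be told apart.

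In SK-MES-1 most members were slightly above 0 with either strand of miR-144. With miR-144-5p 54 of 62 were above 0 and the median was 0.34, and with miR-144-3p 51 of 63 were and the median was 0.12. All genes had medians of 0.04 and 0.03. The classes did not part as in PANC1: with miR-144-5p the class medians ran from 0.23 for H3 to 0.47 for H1. S phase genes were above 0 in 13 of 15 cases with each strand, with medians of 0.37 and 0.22.

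With miR-144-5p, 1 member was past 1 above mock and 0 below, against 4.17% and 1.96% of genes. It was HIST4H4, the single gene of its cluster, at 1.24, or 0.18 after normexp and loess. With miR-144-3p, 2 were above and 0 below, against 4.51% and 1.11%. These were HIST1H2BF and HIST3H2BB, both well above background in transfected cells only, at least 1.02-fold and at least 1.24-fold higher. HIST1H1D, a linker histone, had nearly equal ratios with both strands, at 0.94 and 0.91.

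When the arrays of a line were averaged and the 5 lines tested together, 0 of 56 members passed (limma, adjusted p under 0.05), against 0.359% of 18660 genes. The median of the members was -0.05, against 0.03 over all genes. At an unadjusted p under 0.05, 2 members were higher and 6 lower, against 12.5% and 7.89% of all genes. Those higher were HIST2H2AA4 (0.47, SE 0.15) and HIST1H2BG (0.26, SE 0.11). Of the 6 lower, 5 were H4 genes and the other was HIST1H3I at -0.33 (SE 0.10), which had the smallest adjusted p, 0.154 in limma. Transfected cells were in Cy5 on every array, so a mean over lines cannot be told apart from an effect of the dye or of transfection.

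Among 15 tested genes for the synthesis and processing of histone mRNA, LSM11, a part of the U7 particle that cuts the end of histone mRNA, was above 0 on all 8 arrays, between 0.42 and 2.60. Its mean over 5 lines was 1.102 (SE 0.17, adjusted p 0.0543 in limma), and in PANC1, where it was highest, its mock signal was not well above background. A sign shared by all 8 arrays cannot be told apart from an effect of the dye or of transfection. SLBP itself was at -0.46 and -0.67 with miR-204-5p, at 0.42 with miR-130-5p and at -0.18 with miR-130-3p. NPAT, the activator of histone transcription, was at -0.59 with miR-130-5p. None of these 15 genes passed at an adjusted p under 0.05, with 1 higher and 1 lower over 5 lines at an unadjusted p under 0.05.

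Levels in mock cells showed in which lines each member was detected. A mock level is the log2 Cy3 signal minus the 75th percentile of its array, and it is compared only between lines for the same probe. Of 69 members, 55 were well above background in all 5 lines, 11 in 1 to 4 lines and 3 in none. The 3 in none were HIST1H1T, HIST1H4G and HIST2H2BA. PC3, SK-MES-1, SW1990 and PANC1 each had 62 members well above background and MDA-MB-231 had 58.

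Among the 66 members above background somewhere, the median range between lines was 1.85 log2 units, against 1.64 over all genes. Ranges over 2 were found for 29 members (43.9%), against 39.4% of 24769 genes, so under this scaling the members varied between lines about as often as other genes. H2B had the most genes over 2, with 13 of 18, but its median range of 2.11 was no larger than that of H1, 2.12. In lines with 2 mock arrays, members well above background on both differed between them by a median of 0.04 to 0.05, and at most by 1.0, for HIST1H2AA in PC3. In 4 cases a member passed the background call on only 1 of a line's 2 mock arrays, and the largest gap of these was 3.58, for HIST1H1A in PC3.

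**Figure D3:**
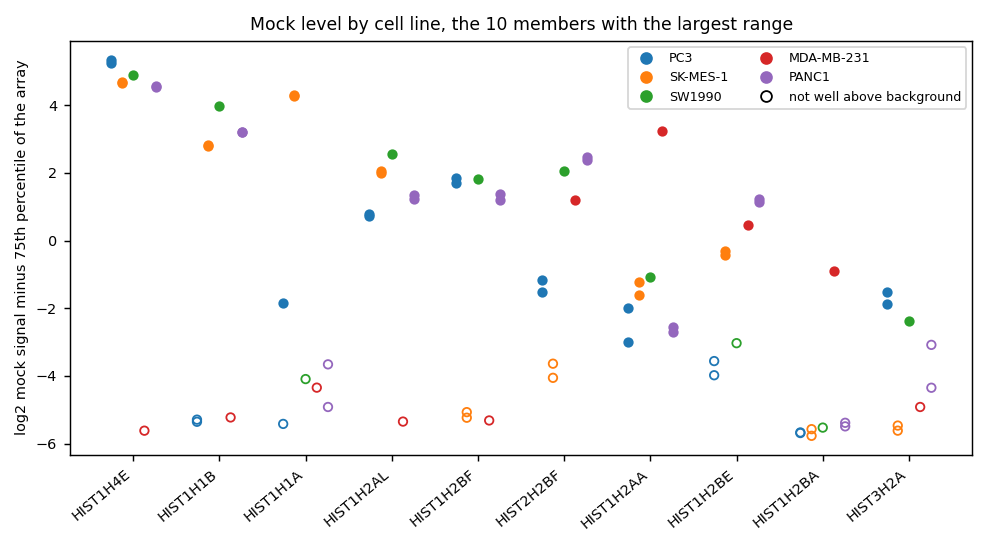
Log2 mock signal minus the 75th percentile of its array (y axis) for the 10 members with the largest range between lines (x axis), 1 circle per mock array and 1 colour per cell line. Open circles were not well above background on that array; HIST1H4E is near 5 in 4 lines and open in MDA-MB-231, and HIST1H2BA is filled in MDA-MB-231 alone.

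The widest range was that of HIST1H4E, an H4 gene with levels of 5.30 in PC3, 4.90 in SW1990, 4.67 in SK-MES-1 and 4.55 in PANC1. In MDA-MB-231 it was not well above background, which makes PC3 at least 382-fold higher. HIST1H2AL, an H2A gene, was likewise not well above background in MDA-MB-231 and was highest in SW1990, at 2.56, at least 56.7-fold higher. Other genes of both classes were well above background in that line, such as HIST1H4C at 10.04 and HIST1H2AJ at 7.06.

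HIST1H2AA and HIST1H2BA, known from testis, were highest in MDA-MB-231. HIST1H2AA was at 3.24 there and between -2.63 and -1.07 in the other 4 lines, a 58.5-fold range. HIST1H2BA, its H2B counterpart, was at -0.90 in MDA-MB-231, at least 5.44-fold above PC3, and not well above background in the other 4 lines.

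Linker histones varied by line. HIST1H1A was at 4.30 in SK-MES-1 and at -3.63 in PC3, from 1 array that passed the background call and 1 that did not, and it was not well above background in the other 3 lines, with SK-MES-1 at least 190-fold above MDA-MB-231. HIST1H1B was at 3.98 in SW1990, 3.21 in PANC1 and 2.82 in SK-MES-1, and not well above background in PC3 and MDA-MB-231, with SW1990 at least 159-fold above PC3. HIST1H1C, HIST1H1D and HIST1H1E were well above background in all 5 lines.

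For H2B genes the order of lines was not shared by all. HIST1H2BF was at 1.82 in SW1990, 1.77 in PC3 and 1.29 in PANC1, and not well above background in SK-MES-1 and MDA-MB-231 (at least 34.0-fold). Its levels in SW1990 and PC3 differed by less than the 2 mock arrays of PC3. HIST1H2BE was highest in PANC1, at 1.18, then MDA-MB-231 at 0.47 and SK-MES-1 at -0.36, and not well above background in PC3 or SW1990 (at least 22.9-fold). HIST2H2BF was highest in PANC1, at 2.43, and not well above background in SK-MES-1 (at least 53.7-fold). HIST3H2A, an H2A gene of the third cluster, was well above background in PC3 and SW1990 only, at -1.70 and -2.37.

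Across members the lowest line was most often SK-MES-1, for 35 of 66, and the highest most often SW1990, for 26. Relative to its mean over the lines, the median of the 55 members above background in all lines was -0.71 in SK-MES-1, and that of all 16127 such genes was -0.17. H2B was lowest, with all 13 genes below their mean and a median of -1.30. HIST1H2BK was the extreme, at 2.11 in SK-MES-1 and between 4.63 and 5.54 in the other 4 lines, a 10.7-fold range.

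H4 showed its lowest median in PANC1, at -0.77, but at -0.45 with quantile normalization. With the 75th percentile taken over probes above background on all arrays it was -0.815. The median of the 55 members in SK-MES-1 was -0.42 with quantile normalization and -0.50 with that percentile. With quantile normalization the SK-MES-1 median of H2B was -0.96 and with that percentile it was -1.09. SK-MES-1 was then lowest for 29 of 66 members under each. PANC1 was lowest for 18 of 66 under the first scaling, for 25 with quantile normalization and for 24 with that percentile. Under the last of these scalings the median of all genes in SK-MES-1 was 0.05 rather than -0.17, so part of the distance to the other lines depends on the scaling.

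**Figure D4:**
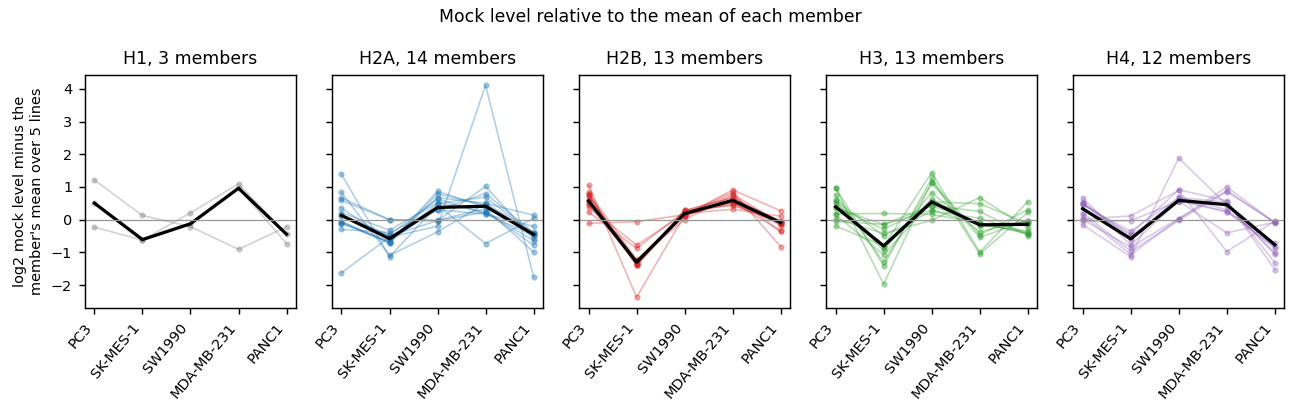
Log2 mock level minus the member's own mean over 5 lines (y axis) by cell line (x axis), 1 panel per class, for the 55 members well above background in all lines. Coloured lines are genes and black lines class medians; the H2B median is -1.30 in SK-MES-1, and the H2A gene that leaves its class in MDA-MB-231 is HIST1H2AA.

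The least variable members were HIST1H3A, with a range of 0.61, and HIST3H3, with 0.71. HIST3H3, a gene known from testis, was at 7.43 to 8.14 in all 5 lines. Its probe is 85.0% identical over 40 bases to that of HIST2H3D, and whether that gene's RNA was part of the signal was not tested. HIST1H4C was at 8.32 to 10.04, lowest in SK-MES-1 and highest in MDA-MB-231.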

How the data were processed

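Per the labels, total RNA of 5 cell lines was hybridised on 8 Agilent 2-colour arrays, on 1 slide read in 1 scan. The authors deposited the scanner output: linear intensity values of both dyes for each spot and log10 ratios of Cy5 to Cy3, made by Feature Extraction 11.5.1.1 with its own background subtraction and dye normalization. The deposited value table held the same log10 ratios (largest difference 0).

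Control spots and outlier spots (126 to 173 an array) were dropped, and repeated spots of 1 probe were averaged. Ratios were turned to log2. The probe brightest over all 8 arrays stood for a gene. A probe was tested where at least 1 channel was well above background on every array of the fit. The 2 si-PIR and 2 miR-204-5p arrays were fitted together with lmFit and eBayes in limma 3.58.1 (R 4.3.3), the 5 lines in another fit after averaging, with Benjamini-Hochberg adjustment over all genes. Tested on simulated data, the fit called 87 of 100 genes changed by 2 on the log2 scale with miR-204-5p and 97 of 100 changed by 3, among 19661 genes. For the difference between miR-204-5p and si-PIR it called 55 and 80 of 100. It also called 11 and 9 unchanged genes in these 2 tests. The simulated noise was normal, and changes below 2, where the members' mean ratios lay, were not simulated. In the real data no gene passed in this fit, PIR included, so these rates do not carry over to it. Bounds use the lowest signal well above background. Alternatives were other background corrections and normalizations, filters, probe rules and thresholds, and leaving out arrays or lines.

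The members and gene lists were chosen with earlier results of these data known. Named were PIR, the 6 polyadenylated members, on each array up to 5 members on each side past 1, the 10 with the widest mock range, and up to 4 genes of a list. Others were chosen after their values were seen. Of 69 genes, 68 had a current symbol through their RefSeq accession. Array positions are hg19 and RefSeq sequences GRCh38.p14. Promoters of 61 members were searched for ATTTGCAT, CCAAT and TATAAA on both strands. Figures used matplotlib 3.10.9.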

Additional observations from a re-analysis of the deposited data

Results flagged for a closer look

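In mock cells, 5 of the 10 members with the widest range had a line far from the other 4. The gap to the nearest line made up 0.95 of the whole range for HIST1H2BA and 0.735 for HIST1H2AA, both high in MDA-MB-231. It made up 0.93 for HIST1H4E and 0.772 for HIST1H2AL, both low in MDA-MB-231, and 0.917 for HIST1H1A, high in SK-MES-1. The critical value for 5 lines is 0.71, and chance alone passes it in about 1 of 20 groups. The 10 members were taken for their wide range, so the number passing is not comparable with that rate. For HIST1H4E, HIST1H2AL, HIST1H2BA and HIST1H1A the dim lines were not well above background, and their gaps rest on signals that are only bounds. The 2 PC3 arrays of HIST1H1A were 3.58 apart.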

How the results depend on the processing

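No member passed an adjusted p under 0.05 under any alternative, which says little where no gene passed in the fit of 4 arrays. Of 876 values of named genes, 10 changed sign. With miR-204-5p, HIST1H2BD at 0.008 was -0.03 and -0.057 after normexp with offsets 50 and 1, and -0.029 after centring on the median. Leaving out SW1990 or MDA-MB-231, it was -0.028 and 0.045, HIST1H2BK -0.131 and 0.319, and HIST1H2BC -0.213 and 0.096. Over 5 lines, HIST1H1C at -0.006 ran from -0.165 without PANC1 to 0.127 without MDA-MB-231 (0.044 without SW1990), and HIST1H2AC at -0.063 from -0.154 without SK-MES-1 to 0.027 without SW1990 (0.018 without MDA-MB-231). The member past 1 with miR-144-5p was 0 after normexp with offset 50 and at a threshold of 1.5. The 2 with miR-144-3p were 0 after normexp with offset 50 and with both channels required above background. The 10 members lower with miR-130-5p were 0 at a threshold of 1.5. The 29 mock ranges over 2 were 11 after quantile normalization, 22 with the percentile over probes above background on all arrays, chosen after seeing the data, and 27 to 29 without 1 mock array of each line that has 2. The cause was not tested. Counts at an unadjusted p under 0.05 ran from 0 to 25 for the 15 lower with miR-204-5p, from 1 to 19 for the 11 higher with si-PIR, from 1 to 35 for the 10 lower in their difference and from 1 to 16 for the 6 lower over 5 lines. Without SW1990 or PANC1 the last count was 1, and without SK-MES-1 it was 16. Without either miR-204-5p array the 15 were 0, and the 11 with si-PIR were 4 and 3. The 11 were 1 without the si-PIR-2 array and 7 without the si-PIR-3 array, and the 10 were 1 without either miR-204-5p array and 4 without the si-PIR-3 array. The 3 members past 1 with si-PIR-2 were 0 after normexp with offset 50, and 1 at a threshold of 1.5 or with both channels required. A block for the slide was not run, because all arrays were on 1 slide. Shares over all genes are not given under these alternatives, so a shift of the members cannot be told from one of the whole array. The number of arrays limits the precision.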
